A study of Homo sapiens with 6 samples.

Results

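The 5 genes of the Rel family that make NF-kB (NFKB1, NFKB2, REL, RELA and RELB), 3 genes of the IkB proteins that hold it in the cytoplasm (NFKBIA, NFKBIB and NFKBIE) and 2 genes that act on its upstream signalling (TNFAIP3 and BIRC3) were followed after knock-down of SFPQ. These 10 genes were picked by name and found by their Ensembl identifiers among the 60664 genes of the count table, and all 10 passed the filter on low counts. The cells were U-2 OS, a human osteosarcoma cell line whose genotype the labels give as polyploid. They received control siRNA (siControl) or siRNA against SFPQ (siSFPQ), transfected with a lipid reagent at a final siRNA concentration of 30 nM, with 3 biological replicates per condition and 6 libraries in all. SFPQ encodes a nuclear protein that binds RNA and DNA, and the RNA-seq experiment asked how its loss changes the transcriptome. Everything below therefore describes RNA of 1 cell line, without any measurement of protein, of cleavage of the precursors or of nuclear entry.

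NF-kB is a dimer of Rel proteins. RELA, RELB and REL carry a transactivation domain, while NFKB1 and NFKB2 encode precursors (p105 and p100) that are cut to the DNA-binding subunits p50 and p52. In resting cells IkB proteins mask the dimers. Kinases downstream of cytokine and pattern recognition receptors mark the IkB proteins for destruction in the canonical pathway, and in the non-canonical pathway they drive the processing of p100, which frees RELB with p52. Many of the genes that NF-kB switches on are its own regulators, among them NFKBIA, NFKB2, RELB, TNFAIP3 and BIRC3. TNFAIP3 encodes A20, a ubiquitin-editing enzyme that shuts the signal off, and BIRC3 encodes cIAP2, a ubiquitin ligase at TNF receptors that protects from cell death.

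The DNA sites that Rel dimers bind follow a pattern 10 bases long, the kB consensus. It was searched on both strands in RefSeq promoter windows of the GRCh38.p14 assembly, which run from 250 bases before to 50 bases after an annotated transcript start. The table matched 8 of the 10 genes, not RELB and NFKBIE. A match was present for 7 of these 8 genes, in 8 of their 13 windows, and neither of the RELA windows held one. Over all promoters listed, 5.91% of 35116 windows and 7.09% of 27305 genes had a match. The stretches below show matches of 4 genes whose RNA rose and of the 2 genes whose RNA fell. Capitals mark the matches, and a capital run longer than 10 bases holds overlapping ones.
BIRC3, chr11:102317276-102317367, plus strand: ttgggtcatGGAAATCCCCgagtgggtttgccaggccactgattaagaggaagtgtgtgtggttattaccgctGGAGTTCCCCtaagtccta
TNFAIP3, chr6:137867183-137867222, plus strand: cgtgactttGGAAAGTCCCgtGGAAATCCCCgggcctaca
NFKB2, chr10:102394462-102394490, plus strand: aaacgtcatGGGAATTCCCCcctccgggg
NFKBIA, chr14:35404812-35404839, minus strand: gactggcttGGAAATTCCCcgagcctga
REL, chr2:60881518-60881546, plus strand: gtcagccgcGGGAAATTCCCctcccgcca
NFKBIB, chr19:38899932-38899960, plus strand: ggcgtggtgGGGAATTTCCCgcagggcgg
The first match lay 199 bases before the RefSeq start in BIRC3, 67 in TNFAIP3, 107 in NFKB2, 81 in NFKBIA, 47 in REL and 28 in NFKBIB. Those of BIRC3, TNFAIP3 and NFKBIA lay outside the gene's span in the GENCODE annotation, and those of NFKB2, REL and NFKBIB inside it. Matching letters are a description of the sequence, and whether any Rel protein occupied them in these cells was not measured.

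The libraries held 46142855 to 47119203 counts in siControl and 43469321 to 45543610 in siSFPQ. SFPQ itself (chr1:35176378-35193446, minus strand) had 22381, 23139 and 21811 normalized counts in siControl replicates 1 to 3 and 3238, 3780 and 3108 in siSFPQ, a log2 fold change of -2.73 ± 0.050 (standard error, as for every log2 fold change below). Normalized counts are counts divided by a library's TMM size. Of the osteoblast lineage markers, 5 of 9 exceeded 1 CPM on average, COL1A1 and SPARC most of all, whereas SP7, BGLAP and IBSP were at or near 0 counts. Of the 7 tested, 1 was higher (BGLAP, at 0 to 6 counts per library) and 3 were lower, among them SPP1 with a log2 fold change of -1.33. The 9 markers summed to 5060 to 5391 CPM in siControl and 4314 to 4346 CPM in siSFPQ. None of 8 leukocyte markers reached 1 CPM, and their summed level was 0.964 to 1.62 CPM in siControl and 0.625 to 0.898 CPM in siSFPQ. Exon bases shared with a gene on the same strand make the low counts of BGLAP (40.9% shared) and of the leukocyte marker CD68 (85.6% shared with other genes, mostly of the same strand) uncertain. Of 6 epithelial and epidermal markers, 4 were higher and 1 lower after knock-down, with summed levels of 344 to 360 CPM in siControl and 733 to 802 CPM in siSFPQ. The sum rested mostly on KRT8 and KRT18, which rose and averaged 315 and 230 CPM over all libraries. CDH1 and KRT5 also rose but averaged 1.49 and 1.43 CPM. KRT14 fell (log2 fold change -1.82 ± 0.092) and EPCAM did not pass. Of 3 endothelial markers 2 were higher, with summed levels of 4.25 to 5.49 CPM in siControl and 6.53 to 7.33 CPM in siSFPQ. Over all genes tested, 22.4% were higher and 22.1% lower at an adjusted p under 0.05. The part of these marker differences in the results below was not tested. In bulk RNA, fewer cells that express a gene and less RNA per cell cannot be told apart.

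All 10 genes passed an adjusted p of 0.05 in edgeR, 8 of them higher and 2 lower in siSFPQ. BIRC3 rose 4.21-fold, NFKB2 1.73-fold, TNFAIP3 1.61-fold, RELB 1.48-fold and NFKBIE 1.46-fold, while NFKB1, RELA and NFKBIA rose by 19.5% to 23.1%. REL fell by 17.8% and NFKBIB fell by 24.2%. Calls were frequent across the transcriptome. Among all 29022 genes tested 22.4% were higher and 22.1% lower, and among the 15641 genes with a mean of at least 1 CPM, a level that all 10 genes exceeded, the shares were 30.1% and 34.5%. The median log2 fold change was 0.42 over the 10 genes, 0.02 over all genes tested and -0.02 over those of at least 1 CPM. The study's thresholds also ask for a log2 fold change beyond 1.5 or -1.5, and with them only BIRC3 of the 10 genes was called, against a background of 5.54% higher and 4.77% lower. BIRC3 also belongs to an immune gene signature that the study chose on these same libraries, so its rise is not independent evidence of a direction. In each of the 10 genes the normalized counts of the conditions did not overlap, which was also the case, in the higher direction, for 26.9% of the genes tested and, in the lower direction, for 25.4%. These shares include genes under 1 CPM, and those among genes with at least 1 CPM were not counted.

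**Figure D1:**
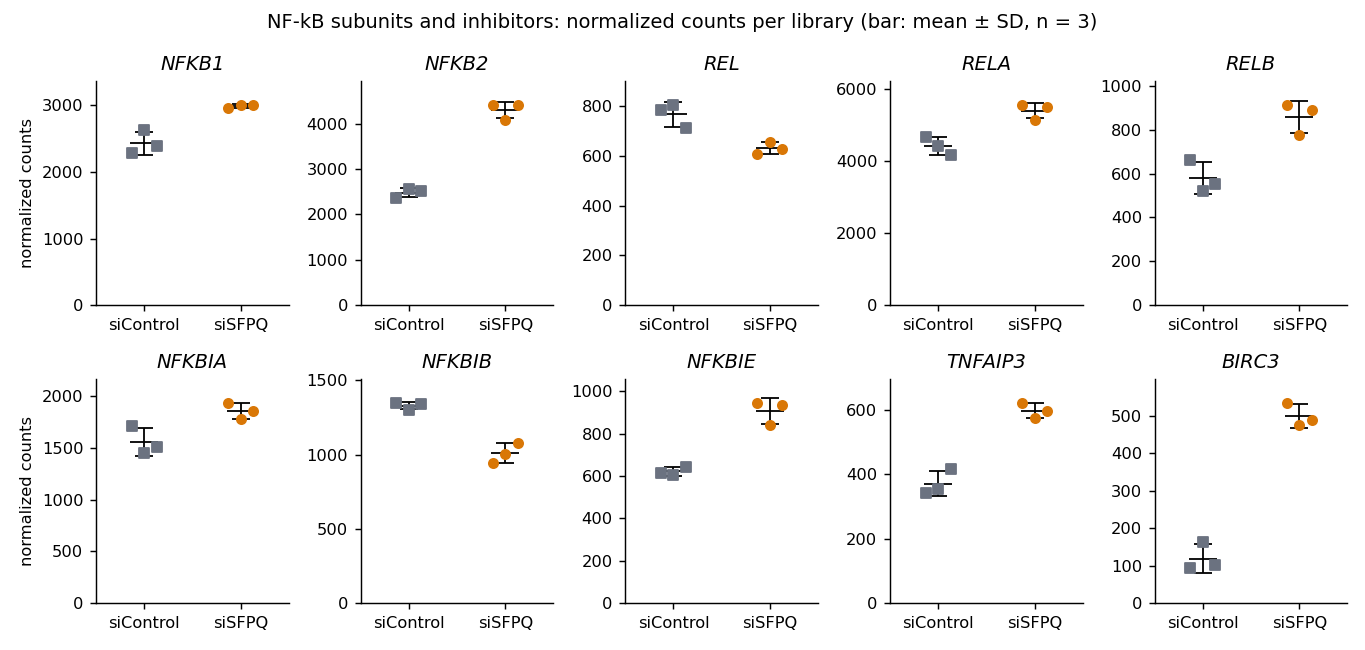
Normalized counts (y axis, from 0) of the 10 genes in each siControl (grey squares) and siSFPQ (orange circles) library, with bars for the mean ± SD of 3 libraries. The 3 siSFPQ libraries lie above all siControl libraries in 8 panels and below them for REL and NFKBIB, and BIRC3 has the largest fold, from 92.2 to 163 against 475 to 535.

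RELA (ENSG00000173039, chr11:65653599-65663090), the transactivating subunit of the canonical dimer, was the most abundant of the Rel genes. It had 4654, 4412 and 4159 normalized counts in siControl and 5554, 5153 and 5488 in siSFPQ. The lowest siSFPQ library stood above the highest siControl library, and the log2 fold change was 0.29 ± 0.043 (adjusted p = 8.34e-07). NFKB1 (ENSG00000109320, chr4:102501330-102617302), which encodes p105 and p50, had a similar log2 fold change. Its normalized counts were 2275, 2620 and 2382 in siControl and 2956, 3001 and 3000 in siSFPQ, with a log2 fold change of 0.30 ± 0.048 (adjusted p = 2.85e-06). The siSFPQ libraries of NFKB1 were close to each other (SD 25.9), whereas siControl varied more (SD 176).

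The genes of the non-canonical dimer had larger log2 fold changes. NFKB2 (ENSG00000077150, chr10:102394110-102402524), the gene of p100 and p52, had 2372, 2568 and 2507 normalized counts in siControl and 4412, 4092 and 4406 in siSFPQ. The log2 fold change was 0.79 ± 0.044 (adjusted p = 1.31e-16), larger than that of 93.6% of genes with at least 1 CPM. RELB (ENSG00000104856, chr19:45001461-45038192), the partner of p52, had 662, 523 and 554 normalized counts in siControl and 913, 776 and 889 in siSFPQ. The first siControl library was the highest of its condition, and none reached the siSFPQ range. The log2 fold change of RELB was 0.57 ± 0.083 (adjusted p = 7.26e-07).

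REL (ENSG00000162924, chr2:60881491-60931612), the c-Rel gene best known from lymphocytes, was the only Rel gene that fell. Its normalized counts were 782, 803 and 710 in siControl and 605, 654 and 627 in siSFPQ, a log2 fold change of -0.28 ± 0.074 (adjusted p = 0.00208). Of its annotated exon bases, 33.3% are shared with a long non-coding gene on the same strand, and that gene had 0 counts in every library. How reads in the shared part were counted is not given in the sources used here, so the level of REL is uncertain. Across 12 other settings of the test its adjusted p stayed below the threshold but reached 0.0269, the highest of the 10 genes.

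**Figure D2:**
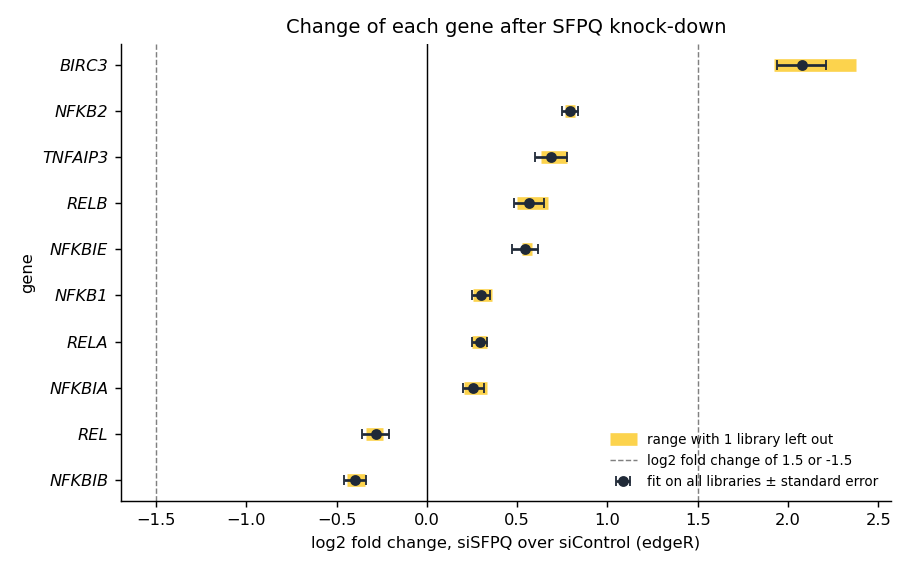
Log2 fold change of siSFPQ over siControl from edgeR (x axis) for each gene (y axis), with points and bars for the fit on all 6 libraries ± standard error and yellow bands for the range when 1 library is left out. Every band stays on its own side of 0, REL and NFKBIB are the genes below 0, and BIRC3, at 2.08, is the gene beyond the dashed line at 1.5.

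Expressed as shares of the summed Rel RNA per exon length, the mixture shifted from RELA to NFKB2. NFKB2 made up 25.1%, 27.8% and 28.2% of it in siControl and 33.8%, 33.8% and 34.0% in siSFPQ. RELA went from 49.1% ± 1.29 to 43.5% ± 0.13 (SD, n = 3), and these groups did not overlap either. The shares of a library make up a whole and do not vary independently, and how often such shares lie apart elsewhere was not counted. REL went from 2.71% ± 0.11 to 1.62% ± 0.13. RELB, at 11.8% ± 1.28 and 12.6% ± 0.57, and NFKB1, at 9.41% ± 0.76 and 8.39% ± 0.40, had overlapping ranges. With the length of the longest transcript in place of all exons, NFKB2 made up 26.2% and 33.0% and RELA 49.8% and 44.4%. NFKB1 then stood above RELB, at 12.4% and 11.1% against 9.23% and 9.95%.

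The IkB genes did not move as a block. NFKBIA (ENSG00000100906, chr14:35401079-35404749) encodes IkB-alpha, the inhibitor that NF-kB resynthesizes first after activation. It had 1711, 1446 and 1511 normalized counts in siControl and 1937, 1784 and 1858 in siSFPQ, a log2 fold change of 0.26 ± 0.057 (adjusted p = 0.000331). This was the smallest rise among the 8 genes that were higher, and 75.9% of genes with at least 1 CPM had a lower log2 fold change. NFKBIE (ENSG00000146232, chr6:44258166-44265788), the gene of IkB-epsilon, had 613, 606 and 644 normalized counts in siControl and 946, 839 and 936 in siSFPQ. Its log2 fold change was 0.55 ± 0.072 (adjusted p = 9.85e-08), and its siControl libraries lay close together.

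NFKBIB (ENSG00000104825, chr19:38899700-38908893) encodes IkB-beta, which binds RELA and REL dimers and is degraded more slowly. It fell from 1350, 1301 and 1342 normalized counts in siControl to 946, 1003 and 1078 in siSFPQ, a log2 fold change of -0.40 ± 0.060 (adjusted p = 1.19e-06). In shares of the summed IkB RNA per exon length, NFKBIB went from 45.1% ± 1.02 to 32.6% ± 1.98, NFKBIE from 18.9% ± 0.86 to 26.3% ± 0.96 and NFKBIA from 36.0% ± 1.83 to 41.1% ± 1.31 (SD, n = 3). None of the 3 shares overlapped between conditions, and NFKBIA took the place of NFKBIB as the largest of them in siSFPQ. The 3 shares of a library make up a whole, so they do not vary independently. How often such shares lie apart in other gene sets was not counted. With the longest transcript as the length, NFKBIA and NFKBIB were about equal in siControl, at 41.8% and 41.7%.

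TNFAIP3 (ENSG00000118503, chr6:137867214-137883314) was a low-level transcript in siControl, with 343, 354 and 416 normalized counts. In siSFPQ it had 622, 574 and 595, a log2 fold change of 0.69 ± 0.088 (adjusted p = 5.66e-08). The conditions were well apart, and the rise was larger than that of 92.0% of genes with at least 1 CPM.

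BIRC3 (ENSG00000023445, chr11:102317484-102339403) had the lowest counts of the 10 genes in siControl. Its normalized counts were 92.2, 163 and 100 in siControl and 535, 475 and 490 in siSFPQ, a log2 fold change of 2.08 ± 0.135 (adjusted p = 7.59e-15). The second siControl library was clearly the highest of its condition. Without it the log2 fold change was 2.38, and it was at least 1.92 with any 1 library left out. Of the genes with at least 1 CPM, 99.2% had a lower log2 fold change. BIRC2, the paralogue that encodes cIAP1, had 2778, 3001 and 3228 normalized counts in siControl and 3201, 2957 and 3107 in siSFPQ. Its conditions overlapped, and its log2 fold change was 0.04 ± 0.048 (adjusted p = 0.54).

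Small parts of the exons of RELA (1.89%), NFKBIB (1.72%), BIRC3 (1.68%) and TNFAIP3 (1.47%) overlap a gene on the opposite strand. The kit keeps strand, but the strand setting of the counting is not given in the sources used here.

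**Figure D3:**
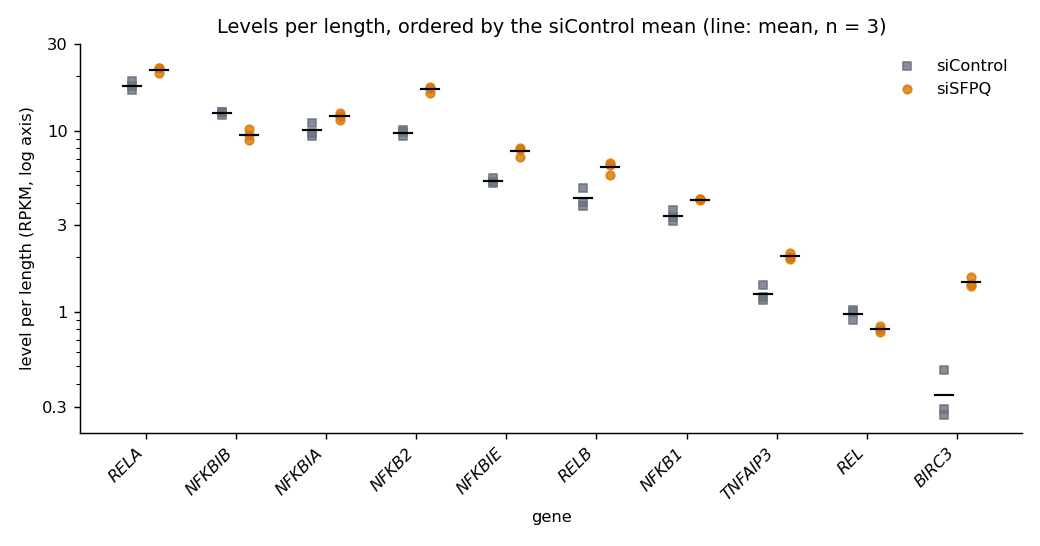
Level per length (RPKM over all annotated exons, log y axis) of the 10 genes (x axis), ordered by the siControl mean, with 1 marker per library and a line for the mean of 3 libraries in siControl (grey squares) and siSFPQ (orange circles). RELA is highest in both conditions, NFKB2 climbs from 9.72 to 16.8 RPKM past NFKBIA and NFKBIB, and BIRC3 climbs from 0.346 to 1.46 RPKM past REL.

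Levels of different genes were compared per exon length, in RPKM. In siControl the order ran from RELA (17.7 ± 0.99) over NFKBIB (12.5 ± 0.25), NFKBIA (10.0 ± 0.89) and NFKB2 (9.72 ± 0.39) to NFKBIE (5.26 ± 0.17), RELB (4.23 ± 0.53) and NFKB1 (3.38 ± 0.25), all mean ± SD of 3 libraries. TNFAIP3 (1.26 ± 0.13), REL (0.976 ± 0.062) and BIRC3 (0.346 ± 0.11) closed it. Only the neighbours NFKBIA and NFKB2 overlapped. In siSFPQ no neighbours overlapped, and the order was RELA (21.6 ± 0.86), NFKB2 (16.8 ± 0.72), NFKBIA (12.0 ± 0.49), NFKBIB (9.49 ± 0.62), NFKBIE (7.68 ± 0.50), RELB (6.27 ± 0.53), NFKB1 (4.16 ± 0.036), TNFAIP3 (2.03 ± 0.081), BIRC3 (1.46 ± 0.092) and REL (0.802 ± 0.031). The exchange of REL and BIRC3 at the low end was also present with the length of the longest transcript, while NFKB2 then ranked 2 and NFKBIB 4 in both conditions. NFKB1 then ranked 5, above RELB at 6 and NFKBIE at 7, in both conditions. In siControl these had 7.53, 5.61 and 5.26 RPKM, so the place of NFKB1 depends on the length used.

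A ratio of 2 genes within a library does not depend on how libraries are scaled, and 9 such ratios were compared with a two-sided exact permutation test. With 3 libraries against 3 that test cannot give a p under 0.1, which is 0.129 after adjustment over the 9 ratios, so none could pass 0.05. The ratio of NFKBIA to RELA, the gene of the subunit it masks, overlapped between conditions. NFKBIA had 0.368, 0.328 and 0.363 counts per RELA count in siControl and 0.349, 0.346 and 0.339 in siSFPQ, with a log2 difference of -0.03 (exact permutation p = 0.6, adjusted p = 0.6), and between -0.09 and 0.00 when 1 library was left out. NFKBIB, by contrast, had 0.290, 0.295 and 0.323 counts per RELA count in siControl and 0.170, 0.195 and 0.196 in siSFPQ. The log2 difference was -0.69, with no overlap and the smallest exact p of 0.1. NFKBIE per RELA went the other way, from 0.141 to 0.168 in geometric means, without overlap.

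REL per RELA went from 0.174 to 0.116, a log2 difference of -0.57, and RELB per RELA from 0.131 to 0.159, a log2 difference of 0.28, both without overlap. REL and NFKBIB fell and RELA rose, so the lack of overlap in their ratios to RELA follows from those changes. NFKB2 and NFKB1 had nearly equal counts in siControl, with ratios of 1.04, 0.98 and 1.05, whereas siSFPQ had 1.49, 1.36 and 1.47. RELB per NFKB2 was 0.279, 0.204 and 0.221 in siControl and 0.207, 0.190 and 0.202 in siSFPQ. These values overlapped (log2 difference -0.22, exact permutation p = 0.2, adjusted p = 0.225), and the first siControl library was the highest. BIRC3 per BIRC2 went from 0.0383 to 0.162 and TNFAIP3 per CYLD, another deubiquitinase that restrains the pathway, from 0.185 to 0.279, neither with overlap.

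**Figure D4:**
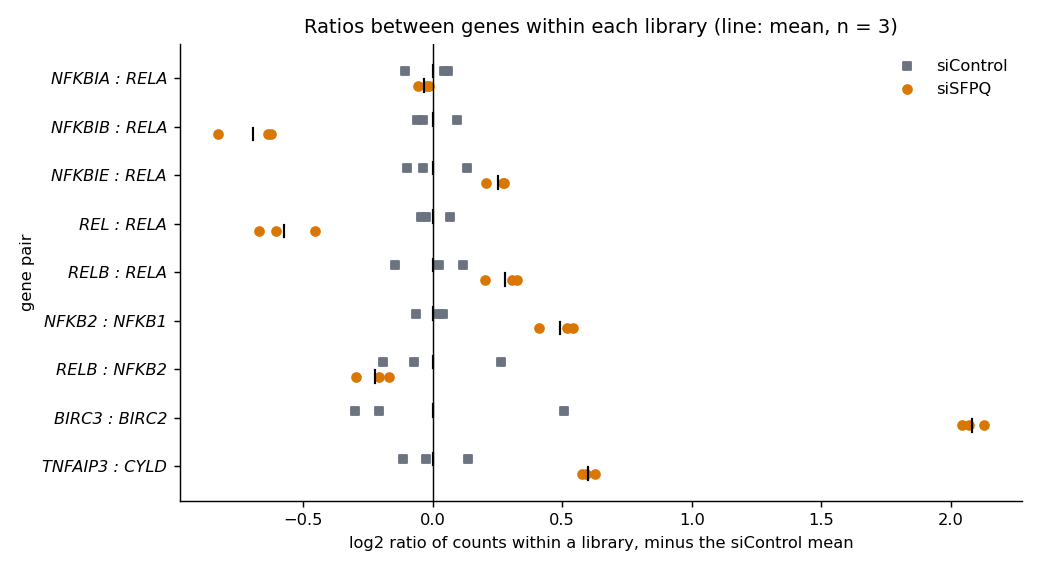
Log2 ratio of the counts of 2 genes within a library, minus the siControl mean of that ratio (x axis), for 9 pairs (y axis), with 1 marker per library and a line for the mean of 3 libraries in siControl (grey squares) and siSFPQ (orange circles). NFKBIA to RELA and RELB to NFKB2 overlap between conditions, and the other 7 pairs are apart, BIRC3 to BIRC2 by 2.08. How often other gene pairs lie apart was not counted.

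The kinases and adaptors upstream of NF-kB changed in both directions, as genes did at large. Of 24 such genes, all tested, 10 were higher, 6 lower and 8 did not pass, with a median log2 fold change of 0.12. Among all genes with a mean of at least 1 CPM, 30.1% were higher and 34.5% lower. None of the 24 genes passed the study's thresholds. The largest rise was that of IKBKE, the gene of the IKK-related kinase IKK-epsilon. It had 551, 471 and 574 normalized counts in siControl and 988, 992 and 981 in siSFPQ, a log2 fold change of 0.89 ± 0.075 (adjusted p = 5.16e-12). MAP3K14, which encodes NIK, the kinase of the non-canonical pathway, had 842, 606 and 582 in siControl and 1048, 1092 and 1063 in siSFPQ (log2 fold change 0.66 ± 0.088). Its first siControl library was clearly the highest of its condition. Of its exon bases 15.1% are shared with a long non-coding gene on the opposite strand, and the strand setting of the counting is not given. MAP3K8 (TPL2, which p105 binds) rose by 0.66 ± 0.102 and MYD88, the adaptor of Toll-like and IL-1 receptors, by 0.43 ± 0.059 on the log2 scale.

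The genes of the core IKK complex differed in direction. CHUK (IKK-alpha) fell by 0.17 on the log2 scale with a standard error of 0.043 (adjusted p = 0.00127). IKBKB (IKK-beta) was higher by 0.14 ± 0.048 (adjusted p = 0.0171), and IKBKG (NEMO), the regulatory subunit, had a log2 fold change of -0.28 ± 0.092 (adjusted p = 0.0119). The calls of IKBKB and IKBKG were each lost when siControl replicate 3, siSFPQ replicate 1 or siSFPQ replicate 2 was left out, with adjusted p of 0.0534, 0.0574 and 0.0709 for IKBKB and 0.086, 0.0958 and 0.0534 for IKBKG. That of IKBKG was also lost when libraries were scaled by library size alone (adjusted p = 0.0506).

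Among 15 genes listed as other inhibitors, 6 were higher, 3 lower and 6 did not pass (median log2 fold change 0.09). The shares over all genes with a mean of at least 1 CPM were 30.1% higher and 34.5% lower. BCL3 and NFKBIZ are in the list as IkB genes, and whether their products inhibited NF-kB here was not measured. COMMD1, whose product promotes ubiquitination of RELA, had the largest change of the list. It had 1292, 1115 and 1100 normalized counts in siControl and 50.5, 66.5 and 87.8 in siSFPQ, a log2 fold change of -4.09 ± 0.117 (adjusted p = 1.26e-24). Of the COMMD1 exon bases 38.2% are shared with other genes, mostly with a processed pseudogene on the same strand that had 0 counts in every library. BCL3, an atypical IkB protein that works in the nucleus with p50 or p52, had 464, 455 and 493 normalized counts in siControl and 1259, 1214 and 1181 in siSFPQ (log2 fold change 1.37 ± 0.069, adjusted p = 8.83e-18). ZC3H12A, the gene of the ribonuclease Regnase-1, rose by 0.44 ± 0.077 and PDLIM2, which targets nuclear RELA, fell by 0.37 on the log2 scale. NFKBIZ, the gene of IkB-zeta, had 0.16 ± 0.054 (adjusted p = 0.0132), a call lost without siControl replicate 2, siSFPQ replicate 1 or siSFPQ replicate 2, when the adjusted p was 0.0685, 0.0532 and 0.0646. CYLD did not pass, at 0.09 ± 0.049 (adjusted p = 0.134).

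Of 20 ligands and receptors of the pathway 15 had enough counts to be tested, and 8 were higher, 3 lower and 4 did not pass (median log2 fold change 0.42, or 0.36 with genes near 0 counts in 1 condition set to 3 counts there). Without siControl replicate 3 the number higher was 5, and without siSFPQ replicate 1 or siSFPQ replicate 3 the number lower was 1. Over all genes tested the shares were 22.4% higher and 22.1% lower. Among genes with a mean of at least 1 CPM, a level that 9 of the 20 reached, they were 30.1% and 34.5%. TNF, the classical inducer, had at most 4 counts in any library and was not tested. TNFRSF13C, which encodes the receptor BAFF-R, fell from 339, 260 and 313 normalized counts to 66.0, 59.7 and 53.3 (log2 fold change -2.35 ± 0.146, adjusted p = 2.35e-15). TLR4, the receptor for lipopolysaccharide, had 2628, 2657 and 2586 in siControl and 4310, 4158 and 4180 in siSFPQ (log2 fold change 0.68 ± 0.041). LTBR, another receptor, rose by 0.44 ± 0.044 on the log2 scale. IL1A rose by 1.84 ± 0.262 on the log2 scale at a mean of 1.01 CPM. IL1B had 0, 0 and 1 counts in siControl and 7, 9 and 8 in siSFPQ, and TNFSF14 had 7, 4 and 2 in siControl and 0, 1 and 0 in siSFPQ. Both passed the thresholds, but these counts are too few to give a fold change, and the call of TNFSF14 (adjusted p = 0.0486) was lost in 7 alternative fits, with adjusted p between 0.053 and 0.155.

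**Figure D5:**
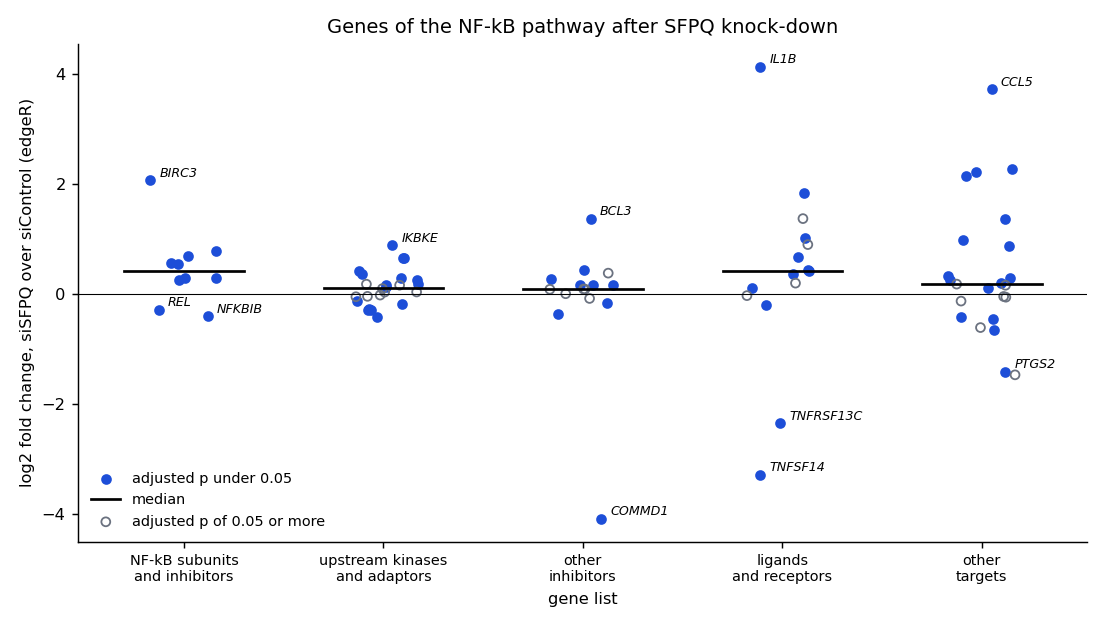
Log2 fold change of siSFPQ over siControl from edgeR (y axis) for the genes tested in 5 lists (x axis), with filled points for an adjusted p under 0.05, open points for the others and a line for the list's median. The 10 NF-kB subunit and inhibitor genes are all filled, 8 above and 2 below 0, with a median of 0.42, the other lists hold both filled and open points, and the positions of IL1B and TNFSF14 rest on few counts and are not fold changes to be read.

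Of 27 other NF-kB target genes, 26 were found by identifier and 23 tested. Of these, 12 were higher, 4 lower and 7 did not pass, with a median log2 fold change of 0.18. Over all genes tested, 22.4% were higher and 22.1% lower. Among genes with a mean of at least 1 CPM, a level that 18 of the 26 reached, the shares were 30.1% and 34.5%. Of these targets CXCL8, CCL5, BCL2A1 and TRAF1 were past the thresholds, all higher, beside 5.54% higher of all genes tested. TRAF1, an adaptor of TNF receptors that binds cIAP2, had 25, 8 and 17 counts in siControl and 75, 77 and 93 in siSFPQ (log2 fold change 2.28 ± 0.288, adjusted p = 4.13e-08). CXCL8, the neutrophil chemokine, had 19.0, 10.0 and 35.1 in siControl and 106, 69.5 and 109 in siSFPQ (log2 fold change 2.15 ± 0.288). BCL2A1, a survival gene of the BCL2 family, rose by 2.22 ± 0.314 and the chemokine gene CCL5 by 3.73 ± 0.469, from 0, 8 and 4 counts to 67, 40 and 57. The size of the CCL5 rise rests on single siControl libraries, with 4.69 without siControl replicate 2 and 3.16 without siControl replicate 1. CCL5 and IL1A, like BIRC3, belong to the signature chosen on these libraries. TNFRSF9, the gene of the costimulatory receptor 4-1BB, had 438, 418 and 414 normalized counts in siControl and 1148, 992 and 1137 in siSFPQ (log2 fold change 1.37 ± 0.076). PTGS2, the inducible cyclooxygenase gene and a classical target, fell from 295, 222 and 199 to 84.6, 92.0 and 90.7 (log2 fold change -1.42 ± 0.150, adjusted p = 1.06e-09).

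The kB consensus was present in the promoter windows of 11 of 23 other targets, 6 of 14 other inhibitors, 3 of 17 ligands and receptors and 3 of 21 upstream genes that the table holds. Among genes with a mean of at least 1 CPM that the promoter table holds, the 1019 genes with a match were higher in 33.1% and lower in 37.7% of cases, and the 10166 genes without a match were higher in 30.4% and lower in 35.9%. The median log2 fold changes were -0.01 and -0.02. BIRC3, NFKB1, NFKB2, NFKBIA and TNFAIP3, which rose, hold matches, and so do REL and NFKBIB, which fell. RELA, which rose, has none in its windows. Whether the matches have a part in any of these changes was not tested.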

How the data were processed

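RNA of 3 siControl and 3 siSFPQ libraries was sequenced (stranded mRNA kit, paired-end reads). Per the study's methods and the submitters' processing notes, the authors checked reads with FastQC, aligned them with STAR 2.7.9a to GRCh38 and deposited raw counts per Ensembl gene, without normalization. Groups came from the sample titles. All 6 columns of the table were used and 0 left out.

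Genes with at least 10 counts in total entered edgeR (version 4.0.16, R version 4.3.3) with TMM sizes and a quasi-likelihood test without covariates. Standard errors were derived from that test, as the absolute log2 fold change divided by the square root of its F statistic. The p-values of all 29022 genes were adjusted together by the Benjamini-Hochberg method. Names and spans came from GENCODE 44, matched for 60463 of 60664 identifiers, and RPKM used the union of a gene's exons. The 10 genes, the lists, the tests and the rule for naming genes were chosen with earlier results of these data known. Genes named in each list are its central members and the 4 largest changes with an adjusted p under 0.05, no overlap and a mean of at least 1 CPM, plus those past the thresholds. Names chosen outside this rule are TNF, SOD2 and the marker genes. No p adjusted over a list alone is given.

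On simulated counts with 200 changed genes among 28169 tested, edgeR called 199 of them and 5 others. DESeq2 1.42.0 called 199 and 6 others. This share of changed genes was far below the 22.4% higher and 22.1% lower called in the data. How well changes as small as those of NFKB1, RELA and NFKBIA are recovered was not tested, so the simulation does not bear on them. Replicates differed by more than counting noise, with a chi-square of 3.77 to 5.49 per degree of freedom within a condition. At these depths 3 counts, taken as the floor, cover counting error only.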

Additional observations from a re-analysis of the deposited data

How the results depend on the processing

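The 10 genes kept their direction and their call under all 12 alternatives of the test: 2 other count filters, RLE size factors, library size alone, DESeq2, the replicate block and each of the 6 libraries left out. Of the named single genes, 422 values stayed on their side, 17 lost their call and 1 gained it (CYLD with library size alone, adjusted p = 0.00739). BIRC2, which had no call, turned from 0.04 to -0.012 without siControl replicate 1, in a range of -0.012 to 0.10 over the libraries left out. With an adjusted p alone, 8 of the 10 genes were higher and 2 lower past the threshold. Over all genes 1609 were higher past the thresholds, 967 with edgeR's own count filter, 1369 with DESeq2 and 1419 with the replicate number as a block. Same-numbered libraries did not deviate together (correlations of 0.0019, 0.0121 and 0.0153, each the highest for its library), so the numbers were not taken as pairs. Among the 10 genes the block left 8 higher and 2 lower, and it ended the call of TNFSF14 (adjusted p = 0.108). The ligands and receptors lower were 3, and 1 with library size alone. With 1 library left out they numbered 1 to 3 lower and 5 to 8 higher.

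With the longest transcript as the length, levels in siControl and siSFPQ were 7.53 and 9.27 RPKM for NFKB1, 15.9 and 27.6 for NFKB2, 1.49 and 1.22 for REL, 30.3 and 37.1 for RELA, 5.61 and 8.32 for RELB, 13.3 and 15.9 for NFKBIA, and 1.49 and 2.40 for TNFAIP3. NFKBIB had 13.2 in siControl and BIRC3 1.59 in siSFPQ. Library size alone in place of TMM moved the median log2 fold change of all genes from 0.02 to 0.08. TRAF1, CXCL8, CCL5, BCL2A1 and IL1A rest on few counts, and the log2 fold change of BIRC3 was 2.38 without siControl replicate 2. Exact tests of 3 libraries against 3 cannot go under 0.1.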
